A study of Schizosaccharomyces pombe with 6 samples.

Results

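The antisense long non-coding RNAs of fission yeast, Schizosaccharomyces pombe, were examined together with the protein-coding genes that they lie opposite to. A non-coding feature (identifier SPNCRNA) was taken as antisense when 1 coding feature on the other strand covered at least 50% of its span. This position rule, which used no expression value, gave 517 of the 1529 SPNCRNA features, in a table of 7001 features. Their sense partners were 502 coding genes, of which 13 lay opposite more than 1 RNA and eta2 lay opposite 4. A set of 13 named non-coding RNAs was set aside beforehand, and 0 of them met the rule.

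RNA was sequenced from vegetative cells of 3 strains, with 2 libraries of each: wild type (WT), mug174Δ and red1Δ. All strains grew without treatment in YES, a rich yeast extract medium, at 32°C. Mug174 is related to Coilin, the marker protein of Cajal bodies, and Red1 is a subunit of MTREC, a nuclear complex that hands RNAs to the exosome. The labels call the red1 genotype a mutation in one field and a deletion in another, and whether a strain was 1 clone was not given.

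Antisense transcripts arise across eukaryotic genomes when RNA polymerase II starts on the non-coding strand of a gene or reads on from a convergent neighbour. In fission yeast they are kept low by the nuclear exosome, by RNA interference and by chromatin factors such as Set2, the Clr6 deacetylase complexes and the histone chaperones, and many rise in meiosis or stress. Mmi1, a YTH-family protein, binds RNAs that carry the hexamer UUAAAC and, with Red1 and the rest of MTREC, directs meiotic transcripts to degradation in vegetative cells. An antisense RNA can pair with, interfere with or simply overlap its sense gene.

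The libraries held 16565908 to 18627129 reads assigned to features. The mug174 gene had 739 and 657 reads in WT against 1 and 0 in the mug174Δ libraries, and red1 had 2457 and 2117 reads in WT against 1 and 2 in the red1Δ libraries, so the deletions were seen in the libraries labelled with them. Levels are given as RPKM, reads per kilobase of feature, scaled to the size of the library. A change is a log2 fold change on log2(RPKM + 0.5), fitted with limma across all 5949 features that reached 1 RPKM in at least 2 libraries, and it was called when the Benjamini-Hochberg adjusted p over those features was under 0.05. RPKM values are shares of a library from a whole culture, so a change in every cell and a larger change in some cells cannot be told apart.

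How much of an antisense RNA was measured was settled first, because its reads overlap those of its partner. Of 329 coding features whose every base was shared, only with features of the other strand, 327 (99.4%) had no read in any of the 6 libraries, while 2 of 4288 coding features that shared no base (0.0466%) had none. The same held for 81 of 82 SPNCRNA features against 9 of 435. Reads in overlaps were thus left uncounted even where the other feature was on the opposite strand. An antisense RNA was therefore measured only over its countable bases, those it shares with no other listed feature, while its RPKM was still divided by its whole length.

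**Figure D1:**
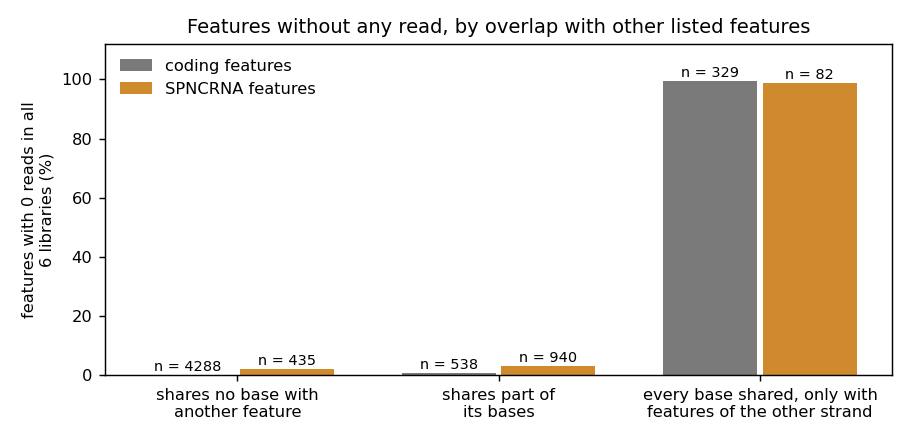
Share of features with 0 reads in all 6 libraries (vertical axis, percent), for coding features and SPNCRNA features grouped by how many of their bases other listed features share. Features whose every base lay opposite features of the other strand were without reads in 99.4% (coding) and 98.8% (SPNCRNA) of cases.

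The 517 RNAs had a median length of 1433 bases (119 to 4984), and a median of 76.7% of the span was covered by the partner. The median RNA had 331 countable bases, or 24.6% of its length, and the highest share was 71.0%. No base was countable in 39 RNAs, 38 of which had no reads, 37 RNAs had 1 to 99 countable bases, and 441 had 100 or more. In all, 52 RNAs had no read in any library. For the 38 without a countable base the level is unknown here rather than low. The others had countable bases with no read over them, and their covered bases were not measured.

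The partners were affected in the same way. Of the 502 partners, 206 had no countable base and 204 of these had no read, among them cbf5, which encodes the essential pseudouridine synthase of H/ACA snoRNPs and was listed at 0 in all 6 libraries. A partner at 0 without a countable base was thus not measured, and is not called silent. In all, 208 partners had no read.

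Where the countable bases lie decides what else could give reads there. The coding features of the table hold neither untranslated regions nor introns, so the untranslated regions and the introns of a sense gene both count as free of other features. By RefSeq mRNA spans, 41% of the 204069 countable bases lay outside every mRNA and 58.3% inside an mRNA of the partner's strand, of which introns made up 15.3% of all countable bases, in 206 of the 517 RNAs. Whether sense reads were counted in them was not given.

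SPNCRNA.1393 has 318 countable bases, all in exons of the mRNA of dld2, a D-lactate dehydrogenase, and its WT density, 159 reads per countable kilobase on the same scale, was close to the 135 of dld2 itself. SPNCRNA.1470 has 341, likewise in exons of the SPBC3H7.08c mRNA, and its WT density was 2.96 against 26.3 for that gene. Over 11 antisense RNAs with at least 300 countable bases, 90% or more of them in exons of the partner-strand mRNA, the WT density was 11.3% to 925% of that of the gene, over 50% in 6, and did not follow it (Spearman -0.11, as a description). For 10 SPNCRNA features lying likewise in an mRNA of their own strand the Spearman value was 0.84. Over all 32 SPNCRNA features lying likewise in an mRNA of the other strand, in the rule or not, it was 0.31. The median density was 31.0% of that of the gene for these 32 and 36.1% for the 10. For a single RNA, antisense reads and reads of the sense untranslated regions or unspliced introns cannot be told apart from the table.

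By position, 201 RNAs held the whole coding span of the partner, 161 lay over its coding start, 109 over its coding end and 46 inside it. Chromosome I held 246, chromosome II 187 and chromosome III 84. Of the 46 RNAs inside a coding span 1 was measured well enough to be tested, so the results below concern RNAs that reach beyond the coding span. The 10 RNAs just inside the coverage threshold (50 to 51.8% covered) had a median of 4.75 RPKM in WT and 8.0 in red1Δ, and the 16 just outside it (48.1 to 49.8%) had 4.71 and 10.2.

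Sequence of the RNAs was read for the Mmi1 hexamer, TTAAAC in DNA letters, on the RNA strand. It occurred in 255 of the 517 RNAs (49.3%), in 43.3% of all SPNCRNA features, whose median length of 1034 bases is shorter, and on the opposite strand of 46.2% of the antisense RNAs. The windows of 30 bases below are shown because they hold the hexamer in RNAs described next, both raised and lowered. Each runs 5′ to 3′ on the RNA strand of build ASM294v3, whose chromosomes matched the coordinates of the table, with the hexamer in capitals. The gene named is the partner of the whole RNA. Only the windows of SPNCRNA.88, SPNCRNA.661 and SPNCRNA.1077 lie opposite coding sequence of that partner. The window of SPNCRNA.1393 also overlaps another feature, SPNCRNA.1392.

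The first 7 windows belong to RNAs named for a rise in mug174Δ, the next 3 to RNAs named for a rise in red1Δ, and the last 5 to RNAs named for a fall in either mutant.
SPNCRNA.713 (opposite cmr2, chrI:1129134-1129163, minus strand): attctaatgcatTTAAACagtaagtgaaag
SPNCRNA.88 (opposite SPAC1786.04, chrI:3033888-3033917, plus strand): ttcattttcactTTAAACcttcgtgtcatc
SPNCRNA.661 (opposite gep3, chrI:549177-549206, plus strand): ggatcttcctttTTAAACataattggcttt
SPNCRNA.1580 (opposite otg2, chrII:3120989-3121018, plus strand): tttcagtgagttTTAAACatacgtgatcta
SPNCRNA.706 (opposite ssd2, chrI:1029907-1029936, minus strand): tttttgatatcaTTAAACtaaaatacgatt
SPNCRNA.1489 (opposite emc3, chrII:2138400-2138429, minus strand): aagctagatacgTTAAACaatttaaaatct
SPNCRNA.1077 (opposite met8, chrI:5360901-5360930, plus strand): ttttttttcgtaTTAAACtggcaagttttg
SPNCRNA.1292 (opposite SPCC70.08c, chrIII:2367537-2367566, plus strand): aaaaacgatacaTTAAACtggcttcattaa
SPNCRNA.1136 (opposite ggc1, chrIII:389256-389285, plus strand): ttttcaacaatcTTAAACataagctttcag
SPNCRNA.1044 (opposite mcp3, chrI:5074434-5074463, plus strand): gaaaactgtgttTTAAACctttgtccaata
SPNCRNA.715 (opposite mug64, chrI:1134611-1134640, plus strand): tccttgttgactTTAAACaagtacgtagga
SPNCRNA.902 (opposite rmt2, chrI:3372555-3372584, plus strand): gggatttttttgTTAAACaataagacattt
SPNCRNA.1644 (opposite spo4, chrII:3826911-3826940, minus strand): ccatgatcatcaTTAAACggtagacagtgt
SPNCRNA.1192 (opposite wtf11, chrIII:1400580-1400609, minus strand): ataatgagtagtTTAAACtaatcgttaata
SPNCRNA.1393 (opposite dld2, chrII:871060-871089, minus strand): atagcgacatctTTAAACcccatatttata

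SPNCRNA.713 carries 5 hexamers and SPNCRNA.1136 carries 3, while SPNCRNA.1668, with the largest rise in mug174Δ, carries none. All 4 RNAs named as lowered in mug174Δ carry 1. Of the 8 RNAs with the largest rises in red1Δ, SPNCRNA.1485, SPNCRNA.788, SPNCRNA.1238, SPNCRNA.1198, SPNCRNA.1199 and SPNCRNA.1494 carry none on the RNA strand. The hexamer occurred in 55.3% of the 179 RNAs raised in red1Δ, in 50.6% of the 162 tested and not raised there, and in 61.3% of the 31 raised in mug174Δ. A match is a description of the letters and says nothing of binding.

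In WT the antisense RNAs were scarce. Their median level was 1.09 RPKM (lower and upper quartile 0.177 and 3.86), against 2.11 for the other 1012 SPNCRNA features, and 42 of 517 averaged 10 RPKM or more. The 2 highest were SPNCRNA.1051, which holds cbf5, at 60.0 and 62.6 RPKM, and SPNCRNA.639, opposite the mitochondrial chaperonin gene mcp60, at 64.6 and 52.8 RPKM. SPNCRNA.639 has 99 countable bases, all in the mcp60 mRNA, over which its 2064 and 1599 WT reads fell, and mcp60 itself had 1274 and 1115 reads.

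The next in order were SPNCRNA.1660, opposite the hydrolase gene odr1 (56.2 and 58.5 RPKM), SPNCRNA.1465, which holds the ribosomal protein gene rps1601 (38.6 and 52.2), SPNCRNA.1393 opposite dld2 (40.7 and 40.9) and SPNCRNA.577, which holds the amino acid transporter gene SPBC1652.02 (33.7 and 32.5). The ranges of the first 3 of these 6 RNAs overlapped or nearly touched, and so did those of SPNCRNA.1465 and SPNCRNA.1393. In all 6 more than 50% of the countable bases lay in the sense mRNA, and the part of sense reads in the level was not tested.

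The median level was 1.47 RPKM in mug174Δ and 2.47 RPKM in red1Δ, and 52 and 79 RNAs averaged 10 RPKM or more. As a share of each library's reads the antisense RNAs took 0.297% and 0.287% in WT, 0.340% and 0.339% for mug174Δ, then 0.414% and 0.460% for red1Δ. The 3 strains did not overlap in this share. As read counts, not scaled to library size, the antisense RNAs had 54471 and 49820 in WT. They had 56330 and 63134 for mug174Δ, then 71598 and 79611 for red1Δ. The read counts of the sense partners did not follow the same order, with 451170 and 415964 in WT, 515982 and 562148 for mug174Δ, then 486775 and 435586 for red1Δ. For the partners, shares of the library were not computed.

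Of the 517 RNAs 341 could be tested. Of the other 176, 52 had no read, 38 of them without a countable base, and 124 had reads but did not reach the filter. Among those tested, 60 passed the filter with neither WT library at 1 RPKM, that is, through a mutant, and 253 had both WT libraries at 1 RPKM or more. The deposited scale was itself uneven. The median over all 5949 features was 0.18 in mug174Δ and 0.35 in red1Δ against WT, and 0.18 in red1Δ against mug174Δ. After median ratio scaling, in which the typical feature is set equal across libraries, these medians became 0.01, -0.00 and -0.01. The main counts are therefore given on both scales, beside the share of all tested features that was called. Counts by position, by place of the countable bases and of pairs are printed on the deposited scale.

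In mug174Δ a small part of the antisense RNAs was called raised. Against WT 31 of 341 RNAs rose (9.09%, with 19.8% of all features) and 5 fell (1.47%, with 5.53%), by a median of 0.91 among the 31 (0.41 to 1.58). The median over all 341 was 0.29 against 0.18 over all features, and 271 were above 0. The median SE was 0.23 for the antisense RNAs and 0.13 over all features. The other SPNCRNA features had a median SE of 0.24 and a median change of 0.34, with 145 of 748 raised (19.4%) and 21 lowered. Why a lower share of the antisense RNAs was called was not tested. The 341 include the 60 RNAs that passed the filter only through a mutant. After median ratio scaling 17 antisense RNAs rose (background 9.8%) and 10 fell (background 10.1%), with a median of 0.14. These calls needed both libraries of each strain: without either WT library, or without either mug174Δ library, 0 RNAs were called in either direction, while 46 and 49 rose without red1Δ replicate 1 or 2. At an unadjusted p under 0.05, 81 rose and 10 fell, and limma voom on the recovered reads called 37 and 6.

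**Figure D2:**
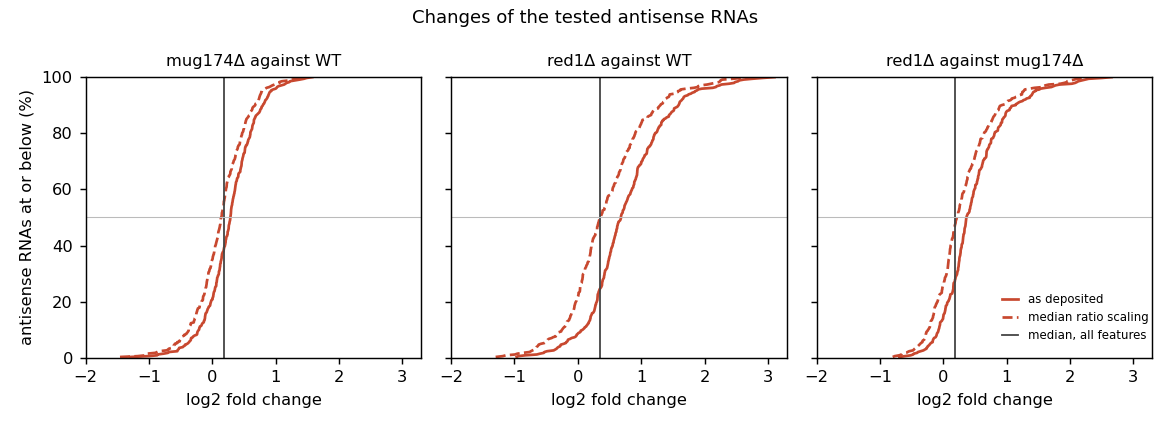
Cumulative share of the 341 tested antisense RNAs (vertical axis, percent) by log2 fold change (horizontal axis) in 3 comparisons, on the deposited scale (solid) and after median ratio scaling (dashed), with the median of all tested features as a vertical line. The antisense curve reaches 50% at 0.29, 0.68 and 0.37, to the right of the line at 0.18, 0.35 and 0.18. Of the 341 RNAs, 60 passed the filter with neither WT library at 1 RPKM.

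The largest rise in mug174Δ was that of SPNCRNA.1668 (chromosome II, 4104163 to 4105623, plus strand), which holds mug147, a gene raised in meiosis. It had 2.32 and 1.81 RPKM in WT, 7.89 and 6.43 for mug174Δ, then 6.09 and 9.42 for red1Δ. Both mutants lay above WT and overlapped each other. The log2 fold change was 1.58 ± 0.26 (SE, adjusted p = 0.0126) in mug174Δ and 1.66 ± 0.26 (adjusted p = 0.00453) in red1Δ, with 225 countable bases, 174 of them in the mRNA of mug147.

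SPNCRNA.713 (chromosome I, 1126901 to 1129344, minus strand) lies over the coding end of cmr2, an AMP-binding enzyme. It had 1.94 and 1.79 RPKM in WT, 6.30 and 6.0 for mug174Δ, then 6.34 and 5.77 for red1Δ, so that the mutants were again alike and more than 3 RPKM above WT. The change was 1.49 ± 0.17 in mug174Δ (adjusted p = 0.00708). Its partner cmr2 had 7.77 and 6.84 RPKM in WT and 7.20 and 8.11 in mug174Δ, which overlap. Of the 624 countable bases 240 lay outside every mRNA.

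SPNCRNA.661 lies over the coding end of gep3, which encodes a GTPase-like protein, and all of its 200 countable bases lay outside mRNAs. It rose from 3.10 and 2.32 RPKM to 7.64 and 5.71 in mug174Δ (1.16 ± 0.24, adjusted p = 0.0221) and had 4.77 and 6.15 in red1Δ. The partner gep3 had 14.0 and 15.5 RPKM in WT and 17.4 and 17.9 in mug174Δ (0.25 ± 0.11, adjusted p = 0.146).

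The other 5 RNAs named by the rule rose by 1.0 to 1.22. They lie opposite SPAC1786.04 (an uncharacterized protein), otg2 (a galactosyltransferase), ssd2 (a succinate-semialdehyde dehydrogenase), emc3 (a subunit of the ER membrane protein complex) and met8 (siroheme synthase). SPNCRNA.88, opposite SPAC1786.04, is 119 bases long, with 39 countable bases and 22 and 13 reads in WT. Of the 8 named RNAs 7 were also called raised in red1Δ, all but SPNCRNA.88, from the same WT libraries.

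Of the 5 RNAs lowered in mug174Δ, 4 met the rule for naming. SPNCRNA.715, opposite the BAR-domain gene mug64, had 10.4 and 12.5 RPKM in WT, 5.17 and 5.67 for mug174Δ, then 6.98 and 7.22 for red1Δ, and fell by 1.01 and 0.65 on the log2 scale (adjusted p = 0.0116 and 0.0157). SPNCRNA.902, opposite the methyltransferase gene rmt2, had 8.58 and 6.36 RPKM in WT, 3.76 and 3.88 for mug174Δ, then 12.5 and 9.04 for red1Δ. It fell in mug174Δ (-0.87 ± 0.22, adjusted p = 0.037) and stood 1.37 higher in red1Δ than in mug174Δ (adjusted p = 0.0155).

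SPNCRNA.1192, opposite wtf11 of the wtf family of spore-killer elements, showed the same order, with 15.3 and 13.2 RPKM in WT, 8.22 and 8.94 for mug174Δ, then 19.2 and 15.5 for red1Δ. Reads of wtf genes can be split among near-identical copies, so this level is uncertain. SPNCRNA.1644, which holds spo4, a kinase of the DDK family needed for spore formation, had 7.92 and 6.23 RPKM in WT and 3.57 and 3.69 in mug174Δ (-0.87 ± 0.22, adjusted p = 0.0391).

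In red1Δ the antisense RNAs rose more widely. Against WT 179 of 341 rose (52.5%, with 48.4% of all features) and 4 fell (1.17%, with 7.33%). The median change over all 341 was 0.68 against 0.35 over all features, and 312 were above 0. The 341 include the 60 RNAs that passed the filter only through a mutant, in which the filter itself favoured a rise. The 179 rose by a median of 1.09 (0.36 to 3.10), 104 of them at least 2-fold and 14 at least 4-fold. On the deposited scale the share raised was thus near that of all features.

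After median ratio scaling 98 rose, or 28.7% of 341, beside 18.1% of all features, and 16 fell beside 19.1%, with a median of 0.37. Of the 179 raised on the deposited scale, 41 had neither WT library at 1 RPKM, out of 60 tested. Both WT libraries were at 1 RPKM or more in 122 of them, out of 253 tested. Leaving out 1 library gave 79 (without WT replicate 2) to 162 RNAs raised. On the deposited scale the other SPNCRNA features had 421 of 748 raised and 30 lowered, with a median of 0.83. After median ratio scaling they had 295 of 737 raised and 55 lowered, with a median of 0.51. Their share raised was thus above that of the antisense RNAs on both scales, and this difference was not tested.

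SPNCRNA.1238 (chromosome III, 1868057 to 1869906, plus strand) holds meu10, which encodes a GPI-anchored protein of the spore wall. It had 2.92 and 4.39 RPKM in WT, 3.3 and 3.69 for mug174Δ, then 28.8 and 21.0 for red1Δ. WT and mug174Δ overlapped and red1Δ stood far above both. The change was 2.62 ± 0.24 against WT (adjusted p = 0.00139) and 2.66 ± 0.24 against mug174Δ (adjusted p = 0.00329). All of its 578 countable bases lay in the mRNA of meu10, itself listed at 0 because none of its bases was countable, so a rise of meu10 mRNA and of the antisense RNA cannot be told apart.

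SPNCRNA.1292 (chromosome III, 2367506 to 2368757, plus strand) holds SPCC70.08c, a predicted methyltransferase, and 389 of its 469 countable bases lay outside every mRNA. It had 2.36 and 3.59 RPKM in WT, 5.01 and 4.50 for mug174Δ, then 16.5 and 38.4 for red1Δ. The red1Δ libraries differed from each other, yet the lower one was above every other library (2.91 ± 0.40, adjusted p = 0.00351). SPNCRNA.1494, which holds the glucosidase gene meu17, had 323 of 474 countable bases outside mRNAs. It had 1.20 and 0.663 RPKM in WT, 1.12 and 0.999 for mug174Δ, then 5.79 and 8.10 for red1Δ (2.39 ± 0.29, adjusted p = 0.00269).

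SPNCRNA.788 lies over the coding start of cyc2, which encodes the enzyme that links heme to cytochrome c. It rose from 1.95 and 1.16 RPKM in WT to 11.1 and 15.5 in red1Δ (2.76 ± 0.31, adjusted p = 0.00223), and 163 of its 201 countable bases lay outside mRNAs. The partner cyc2 had 115 and 117 RPKM in WT and 115 and 103.2 in red1Δ (-0.09 ± 0.09, adjusted p = 0.434), so the RNA rose while no change of its partner passed the test.

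SPNCRNA.1136, over the coding start of the guanine nucleotide transporter gene ggc1, rose by 2.55 ± 0.21 (1.34 and 1.01 RPKM in WT, 9.87 and 8.66 in red1Δ, adjusted p = 0.001). SPNCRNA.1198, which holds the dynamitin gene jnm1, rose by 2.53 ± 0.25 (0.960 and 0.579 RPKM in WT, 6.93 and 6.57 in red1Δ, adjusted p = 0.00158). In both, WT and mug174Δ lay under 2 RPKM. Of 322 countable bases of SPNCRNA.1136, 220 lay in ggc1 introns, and SPNCRNA.1198 had none in an intron.

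The highest fitted change, 3.10 ± 0.83 for SPNCRNA.1485, rested on 1 library. This RNA holds SPBC18E5.15 and had 0.577 and 0.710 RPKM in WT, 3.26 in red1Δ replicate 1 and 25.1 in red1Δ replicate 2. Without red1Δ replicate 2 the change was 1.72, and without WT replicate 1 or 2 the adjusted p rose to 0.0935 and 0.0871.

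**Figure D3:**
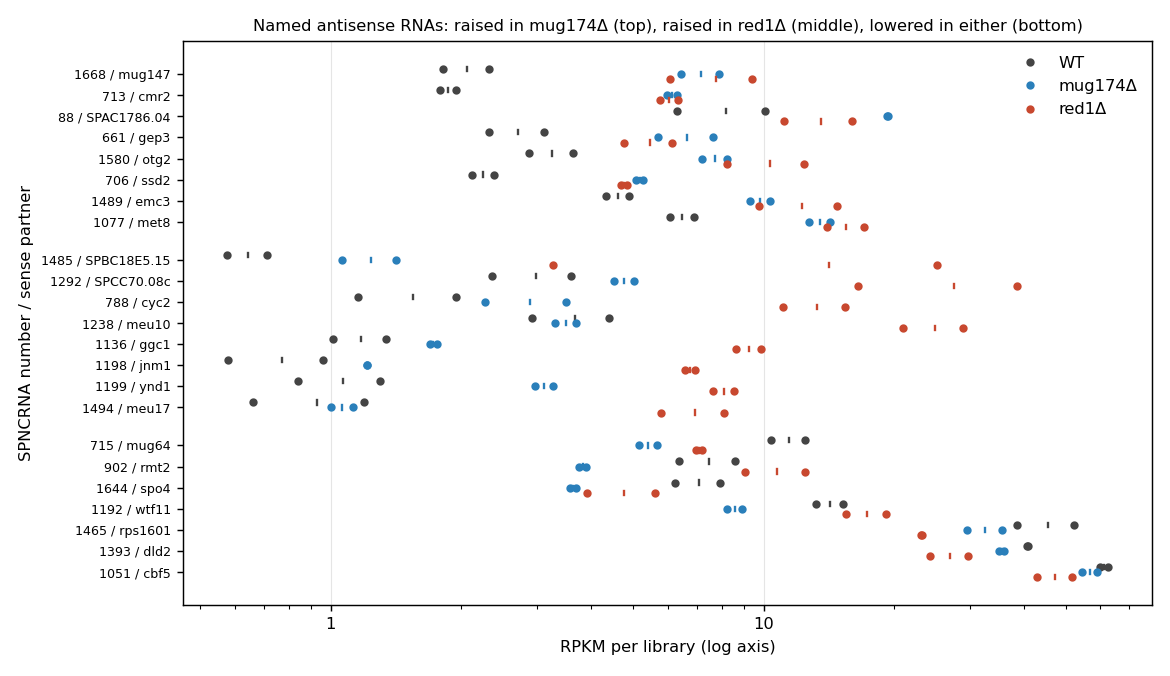
RPKM in each library (horizontal axis, log scale) of the named antisense RNAs, written as SPNCRNA number and sense partner, with 1 point per library and a tick at the strain mean. In the top block mug174Δ and red1Δ both lie above WT, in the middle block red1Δ lies above WT and mug174Δ, and in the bottom block 1 or both mutants lie below WT.

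The 4 RNAs lowered in red1Δ were among the more abundant. SPNCRNA.1465, which holds rps1601, fell by 0.94 on the log2 scale from 38.6 and 52.2 RPKM to 23.1 and 23.2 (adjusted p = 0.00674), with 29.6 and 35.5 in mug174Δ. SPNCRNA.1393 fell from 40.7 and 40.9 to 29.6 and 24.2 RPKM (-0.60 ± 0.12, adjusted p = 0.00863), and its partner dld2 fell too, from 75.7 and 76.7 to 62.8 and 49.4 (-0.45 ± 0.12, adjusted p = 0.025). SPNCRNA.1051, which holds cbf5, had 60.0 and 62.6 RPKM in WT and 51.6 and 42.8 in red1Δ (-0.38 ± 0.11, adjusted p = 0.0318), a call lost without any library other than red1Δ replicate 1. The fourth was SPNCRNA.715, opposite mug64.

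Between the mutants, 61 RNAs were higher in red1Δ than in mug174Δ (17.9%, with 16.1% of all features) and 0 were lower (background 3.28%), with a median of 0.37 over 341. At an unadjusted p under 0.05, 118 were higher and 6 lower, and limma voom called 80 and 0. On the scaled values 36 were higher (background 7.39%) and 3 lower (background 5.66%). The 4 with the largest difference were SPNCRNA.1238 (2.66), SPNCRNA.1292 (2.29), SPNCRNA.1494 (2.24) and SPNCRNA.1136 (2.13). Leaving out either mug174Δ library brought the count to 2, and it was 20 without red1Δ replicate 2 and 70 without red1Δ replicate 1.

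The rise in red1Δ was seen for every tested way in which the RNA reached beyond its partner. It was called in 98 of 175 tested RNAs that hold the whole partner (median 0.71), 41 of 86 over the coding start (median 0.70) and 40 of 79 over the coding end (median 0.60). It was also seen wherever the countable bases lay. Among RNAs with 90% or more of them outside mRNAs 12 of 24 rose (median 0.61), with 50 to 90% outside 49 of 91 (0.84), with 10 to 50% outside 64 of 115 (0.64), and with under 10% outside 54 of 110 (0.60). Of the RNAs with no countable base in a sense intron 103 of 204 rose, and of those with some 76 of 136. The shares lay between 47.7% and 56.0%, all close to the 48.4% of all features, and the differences between classes were not tested.

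In mug174Δ the shares raised were 10.9%, 4.65% and 10.1% for the 3 positions, all below the 19.8% of all features. The median SE was 0.22, 0.26 and 0.22 for these positions, against 0.13 over all features. The median changes, 0.31, 0.29 and 0.20, were not below the 0.18 of all features. From the most to the least of their countable bases outside mRNAs, 6 of 24, 4 of 91, 11 of 115 and 10 of 110 rose.

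**Figure D4:**
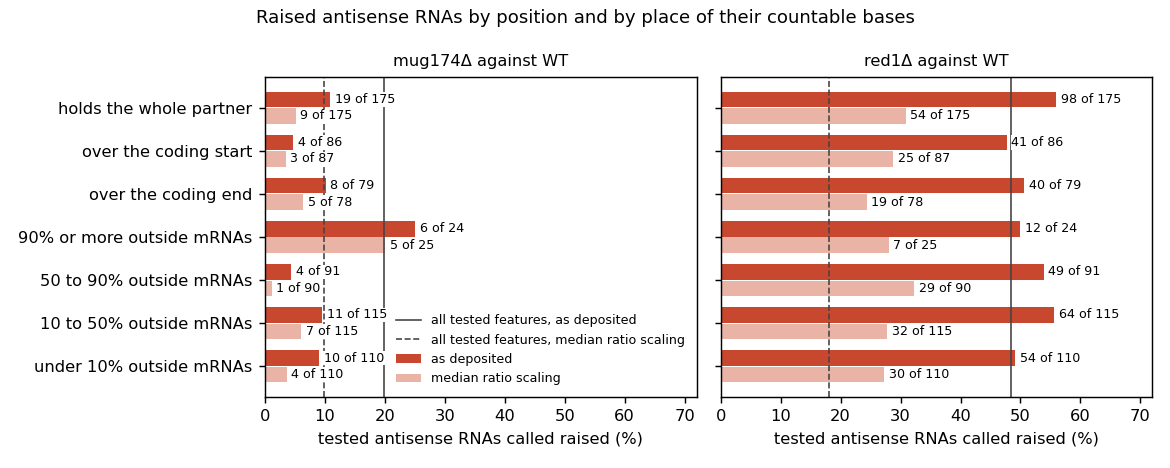
Share of tested antisense RNAs called raised (horizontal axis, percent) by position on the partner and by the share of countable bases outside mRNAs, in mug174Δ and red1Δ against WT, on the deposited scale (dark) and after median ratio scaling (light), with vertical lines at the share of all tested features. In red1Δ the dark bars lie between 47.7% and 56.0%, around the line at 48.4%, and the light bars lie above the dashed line at 18.1%.

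Of the 502 partners 256 could be tested. In red1Δ 117 of them rose and 18 fell (background 48.4% and 7.33%), with a median of 0.36, and in mug174Δ 25 rose and 10 fell (background 19.8% and 5.53%), with a median of 0.18. Over all features the medians were 0.35 and 0.18. After median ratio scaling 19 rose and 36 fell in red1Δ, and 14 rose and 20 fell in mug174Δ, so the larger count moved from raised to lowered. For the RNAs the larger count stayed with those raised on both scales, with 98 against 16 in red1Δ, and the difference between RNAs and partners was not tested.

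In 138 pairs both RNA and partner were tested, and the pair counts are on the deposited scale only. On that scale 48.4% of all features rose in red1Δ and 19.8% in mug174Δ, while 7.33% and 5.53% fell. After median ratio scaling 19 of 258 tested partners rose in red1Δ. Whether RNA and partner rose together more often than their separate shares would give was not tested. In red1Δ both rose in 34 pairs, the RNA rose and the partner fell in 5, and the RNA alone rose in 27. The RNA fell while the partner rose in 1 pair, and both fell in 1. The change of the RNA was above that of its partner in 97 of 138 pairs, by a median of 0.33. In mug174Δ both rose in 0 pairs, the RNA rose and the partner fell in 1, both fell in 1, and the RNA was above the partner in 81 of 138. In the 83 pairs whose RNA had no countable base in a sense intron, both rose in 24 in red1Δ, the RNA rose and the partner fell in 2, and the RNA was above its partner in 55, by a median of 0.23. In mug174Δ none of these 83 pairs was called in opposite directions, and in 68 neither side was called.

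The changes of RNA and partner hardly varied together across the 138 pairs, with Pearson and Spearman values of 0.22 and 0.21 in mug174Δ, then 0.11 and 0.10 in red1Δ. These are descriptions over pairs that share the same 6 libraries. In WT, across 180 pairs with at least 100 countable bases on both sides, the read density of the RNA was a median of 0.0866 of that of the partner, and the Spearman value between them was -0.05.

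**Figure D5:**
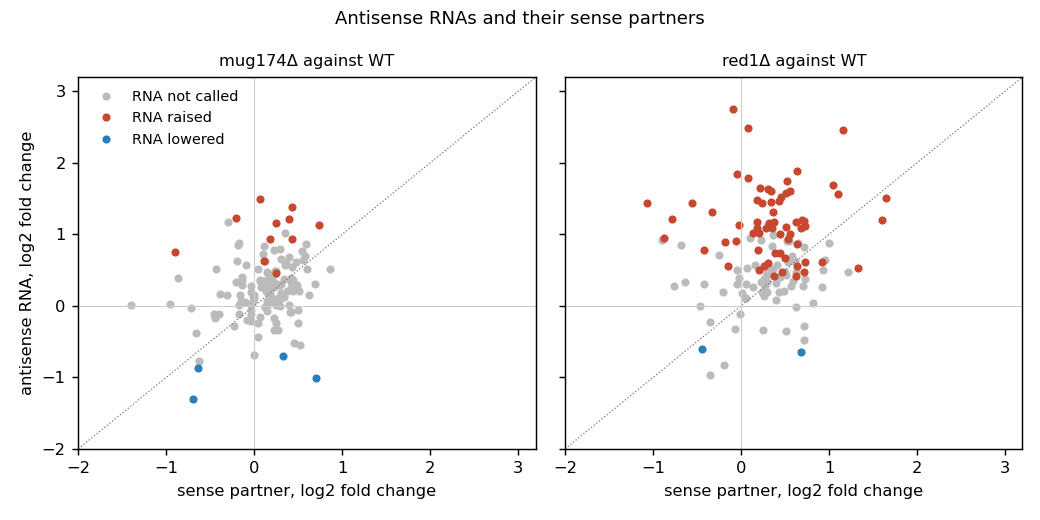
Log2 fold change of the antisense RNA (vertical axis) against that of its sense partner (horizontal axis) for the 138 pairs in which both were tested, in mug174Δ and red1Δ against WT, coloured by the call of the RNA, with a dotted line where both are equal. In red1Δ 97 of 138 points lie above the dotted line, and in mug174Δ 81.

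Among the named opposite pairs the largest changes were those of ade2, which encodes adenylosuccinate synthetase of purine synthesis, and of SPNCRNA.1011, which lies over its coding start (chromosome I, 4654513 to 4655254, minus strand). The gene ade2 had 445 and 413 RPKM in WT, 230 and 230 for mug174Δ, then 271 and 312 for red1Δ. The RNA had 3.09 and 4.35 RPKM in WT, 6.35 and 6.73 for mug174Δ, then 10.4 and 11.2 for red1Δ. In both mutants every library lay below WT for ade2 and above WT for the RNA.

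The gene ade2 changed by -0.90 ± 0.10 in mug174Δ (adjusted p = 0.00636) and by -0.56 ± 0.10 in red1Δ (adjusted p = 0.00614), and SPNCRNA.1011 by 0.75 ± 0.19 (adjusted p = 0.0368) and 1.43 ± 0.19 (adjusted p = 0.00327). After median ratio scaling the change of the RNA in mug174Δ was 0.60, with an adjusted p of 0.072. Of its 527 countable bases 422 lay in introns of ade2, where no reads are counted for the gene itself. More antisense RNA and more unspliced ade2 RNA cannot be told apart in them. At its highest the RNA was at 11.2 RPKM beside 312 of ade2.

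In SPNCRNA.1076 and sum1, which encodes the eIF3i subunit of a translation initiation factor, the RNA had 5.44 and 5.17 RPKM in WT, 7.35 and 7.07 for mug174Δ, then 15.0 and 13.0 for red1Δ (1.32 ± 0.14, adjusted p = 0.00206). The partner sum1 had 514 and 502 RPKM in WT and 412 and 396 in red1Δ (-0.33 ± 0.08, adjusted p = 0.0175). Here 411 of the 593 countable bases of the RNA lay in sum1 introns, with the same limit. In the third pair the signs were reversed: SPNCRNA.715 fell in red1Δ while mug64 had 1.08 and 1.41 RPKM in WT and 2.35 and 2.22 in red1Δ (0.68 ± 0.24, adjusted p = 0.0497, and 0.40 after median ratio scaling), with 353 of 461 countable bases in mug64 introns.

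Among pairs that rose together in red1Δ, SPNCRNA.1199 and ynd1, a nucleoside diphosphatase gene, had the clearest values. The RNA had 1.3 and 0.841 RPKM in WT, 2.96 and 3.25 for mug174Δ, then 8.56 and 7.63 for red1Δ, and ynd1 had 11.6 and 11.9, 17.1 and 14.3, and 28.3 and 25.6. Both thus stood in the order WT, mug174Δ, red1Δ, by 2.47 ± 0.22 (adjusted p = 0.00128) and 1.16 ± 0.13 (adjusted p = 0.00224) in red1Δ, and every countable base of the RNA lay in the ynd1 mRNA.

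SPNCRNA.1580 rose with otg2 (1.51 and 1.65), SPNCRNA.1044 with mcp3 (1.20 and 1.60) and SPNCRNA.558 with npr2, a subunit of the Npr2/3 complex (1.19 and 0.70). SPNCRNA.1044 has 986 countable bases, 90% or more of them in exons of the mcp3 mRNA. Its WT density was 13.7 against 1.48 for mcp3. Antisense reads and reads of mcp3 mRNA cannot be told apart in these bases. The rule for naming found no pair that rose together in mug174Δ.

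RNAs opposite meiosis genes were described as a list, since Red1 and Mmi1 act on meiotic transcripts. The list held 35 RNAs with 33 partners, and mcp60, a mitochondrial chaperonin, had entered it by its prefix only. Of 26 RNAs tested 17 rose and 1 fell in red1Δ (background 48.4% and 7.33%), with a median of 1.01 against 0.68 over all antisense RNAs. On the scaled values it was 14 and 3, with a median of 0.71. In mug174Δ 2 rose and 2 fell on both scales, with a median of 0.29 as deposited and 0.19 scaled. The background was 19.8% and 5.53% as deposited, and 9.8% and 10.1% scaled.

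The raised ones included the RNAs opposite meu10 and meu17 described above and SPNCRNA.1044 opposite mcp3, whose RPKM went from 3.80 and 4.11 in WT to 8.75 and 10.8 in red1Δ. For SPNCRNA.1044 the limit given above, of countable bases in exons of the mcp3 mRNA, holds here too. SPNCRNA.904 opposite dmc1, the meiotic recombinase, rose by 1.05 (adjusted p = 0.00719) and SPNCRNA.1588 opposite spn7, a meiotic septin, by 1.69 (adjusted p = 0.00862), with 326 of its 494 countable bases in spn7 introns. SPNCRNA.1476, opposite mcp4, with 709 of 782 countable bases outside mRNAs, was raised in both mutants (0.80, adjusted p = 0.0199, and 1.09, adjusted p = 0.00406). It had 8.97 and 8.51 RPKM in WT, 17.9 and 13.6 for mug174Δ, then 18.3 and 20.2 for red1Δ. These 3 RNAs, rec11 below, and SPNCRNA.1470 above were chosen after their values were seen.

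Of the 33 meiosis partners 12 could be tested, of which 9 rose and 0 fell in red1Δ and 3 rose and 0 fell in mug174Δ (background 48.4% and 19.8% raised). On the scaled values 3 rose and 1 fell in red1Δ, where 18.1% of all features rose. The largest rise was that of rec11, a meiotic cohesin subunit, from 1.08 and 2.39 RPKM in WT to 33.0 and 37.8 in red1Δ (4.07), with 5.81 and 5.89 in mug174Δ (1.57), while its antisense RNA SPNCRNA.1180 was too low to be tested.

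A list of cytosolic ribosomal protein genes gave 2 RNAs, and a list of stress genes gave 0. SPNCRNA.1578, over the coding start of rpl102, had 13.1 and 15.3 RPKM in WT, 20.7 and 16.9 for mug174Δ, then 47.1 and 33.5 for red1Δ (1.45 ± 0.20, adjusted p = 0.00341). Its partner rpl102 had 48.4 and 50.1, 27.1 and 26.4, and 68.9 and 56.4 RPKM. It fell in mug174Δ (-0.87 ± 0.11, adjusted p = 0.00928) and was 0.34 higher in red1Δ, a difference that became -0.02 after median ratio scaling. Of 384 countable bases of SPNCRNA.1578, 261 lay in rpl102 introns. Reads of rpl102 can be shared with its paralogous copy. The other, SPNCRNA.1465 opposite rps1601, fell in red1Δ as given above.

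Of 49 listed factors that act on antisense RNAs 47 were tested, and pab2 and ctr1 were listed at 0. In mug174Δ 10 rose and 1 fell, and in red1Δ 19 rose and 3 fell, red1 itself among the 3, beside 19.8% and 48.4% of all features raised. On the scaled values it was 3 and 2 in mug174Δ and 4 and 13 in red1Δ, beside 18.1% raised and 19.1% lowered in red1Δ. Those that rose in red1Δ on both scales were red5, an MTREC subunit (83.2 and 73.4 RPKM in WT, 186 and 177 in red1Δ, a change of 1.21), rdp1, the RNA-dependent RNA polymerase (28.0 and 24.6 against 56.3 and 66.3, 1.20), mmi1 (36.7 and 42.8 against 71.2 and 71.5, 0.84) and dcr1, which encodes Dicer (15.2 and 14.1 against 22.6 and 25, 0.68).

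The same mmi1, rdp1 and dcr1 rose in mug174Δ by 0.67, 0.82 and 0.60. The catalytic exosome genes rrp6 and dis3 passed the test in neither mutant on the deposited scale, and on the scaled one dis3 was lower in red1Δ (-0.37, adjusted p = 0.0293). Of the other listed exosome genes, cti1 (-0.36) and rrp46 (-0.42) fell in red1Δ on both scales. On the deposited scale only, csl4 rose in both mutants and rrp41 in mug174Δ. On the scaled values only, rrp4 and rrp40 were lower in red1Δ and cti1 in mug174Δ. The values of rrp6 were 66.2 and 59.2 RPKM of rrp6 in WT, 75.2 and 77.2 in mug174Δ, then 70.6 and 69.6 in red1Δ. The gene exo2, which encodes the cytoplasmic 5′ exonuclease, fell in mug174Δ from 62.6 and 57.9 to 37.5 and 38.4 RPKM (-0.66, adjusted p = 0.0148). The part of these genes in the levels of the antisense RNAs was not tested.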

How the data were processed

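RNA was sequenced from 6 libraries, 2 per strain. The labels name an rRNA depletion kit and a directional library kit, and the study's methods name poly(dT)-enriched, strand-specific libraries, stated for WT and mug174Δ, and paired-end reads aligned with HISAT2 to ASM294v2 with introns up to 2000 bp. The submitters' processing notes list FastQC 0.11.6, STAR 2.5.3a and StringTie 1.3.1c. The read counter, its strand setting and the version of the annotation were not given in the sources used here. How overlaps were handled was therefore read from features with and without shared bases. RPKM per feature was deposited by the authors. RPKM times length gave whole reads, within 0.01, for 100% of values in each library. Columns holding the authors' log2 fold changes and p-values were deposited too and were not used, and no other column of per-sample values was left over.

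Here limma 3.58.1 (R 4.3.3) was fitted to log2(RPKM + 0.5) with 1 mean per strain and a trended spread, for features at 1 RPKM or more in at least 2 libraries, two-sided. The study speaks of 2 independent sequencing experiments, and whether the cultures were separate is not stated, so the p-values rest on a spread that may be technical. Countable bases came from the coordinates of the table, and mRNA spans, exons and sequences from RefSeq ASM294v3. Of 5146 coding features on chromosomes I to III, 5129 began with a start codon there, and 1376 of 1386 matched SPNCRNA features had the same ends, so both builds agree for these chromosomes.

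Named RNAs were the 8 raised and 8 lowered per mutant (4 between mutants) with the largest called change, 5 RPKM or more on average in the strain where they were higher, and libraries that did not overlap, the 6 highest in WT, and the pairs called in opposite (6) or the same (4) direction, plus 3 per partner list. The members and lists were chosen with earlier results of these data known. The scripts were tested on simulated data. Alternatives changed the pseudocount, filter, scaling, trend, strains fitted, coverage rule, replicate block and libraries, and voom on the recovered reads was run.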

Additional observations from a re-analysis of the deposited data

How the results depend on the processing

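The counts below answer how many tested antisense RNAs were called raised or lowered, beside 31 and 5 in mug174Δ, 179 and 4 in red1Δ, and 61 and 0 in red1Δ against mug174Δ. With median ratio scaling they were 17 and 10, 98 and 16, and 36 and 3, and those of the sense partners were 14 and 20 in mug174Δ and 19 and 36 in red1Δ. It turned the sign of 1 named change, that of rpl102 (SPBC30D10.18c) in red1Δ, which became -0.023 from 0.34. Without a trend in the spread 60 rose in mug174Δ, 7 fell in red1Δ, and 94 and 1 were higher and lower between mutants. With only the 2 strains compared 49 RNAs and 45 partners rose and 18 partners fell in mug174Δ, and 26 were higher between mutants. A filter at 5 RPKM gave 98 in red1Δ and 35 between mutants. At 80% coverage, with 225 members, the counts were 7 and 1, 43 and 1, and 11 higher. Coverage over listed exons gave 3 lowered in mug174Δ.

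Chosen after seeing the data, RNAs with 100 or more countable bases outside mRNAs gave 3 lowered in mug174Δ, 111 raised and 2 lowered in red1Δ, and 33 higher between mutants, and those with 90% or more outside gave 6 and 1, 12 and 0, and 1. RNAs with no countable base in a sense intron gave 18 and 2, 103 and 2, and 38 higher. These alternatives hold fewer RNAs.

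Leaving out 1 library gave 0 to 49 raised and 0 to 7 lowered in mug174Δ, 79 to 162 and 1 to 6 in red1Δ, and 2 to 70 and 0 to 2 between mutants. For partners it gave 0 to 46 and 0 to 18 in mug174Δ, and 34 to 114 and 8 to 18 in red1Δ. Where this leaves 1 library of a strain, it is assumed to vary like the others. The cause of these changes was not tested beyond the smaller sets.

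With the replicate number as a block the counts were 33 and 7, 173 and 4, and 63 and 1. Same-numbered libraries correlated at 0.19, 0.23 and 0.063, so the numbers were not taken to pair them. Reads overlapping 2 features were not counted, which limits what depth can show for covered RNAs.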
